A study of Capra hircus with 6 samples.

Results

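The 9 genes described here, PLEKHG2, RETSAT, TBC1D8, HSF2, SPIDR, PTK6, SIRT4, RRBP1 and PIGF, are nuclear protein-coding genes that stood near the top of the read counts of goat (Capra hircus) fetal fibroblasts. They were chosen by their control reads, as named nuclear genes among the 13 most counted named genes of a table of 11374 genes. That top 13 held 11 named nuclear genes. The solute carriers SLC35B2 and SLC7A7 among them are not members, and the mitochondrial genes ND6 and ND5 made up the rest. The last gene inside was PIGF with 4151 control reads, and the next named gene outside was SBNO2 with 3770. High control counts are therefore what chose these genes and not a result.

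Fibroblasts labelled with a fetal age of 50 days were grown for 10 weeks in medium with 10% serum, either with 0.5 µg/mL of GO-AgNP, sheets of graphene oxide that carry silver nanoparticles (treated, 3 libraries), or without it (0 µg/mL; control, 3 libraries). Total RNA was depleted of ribosomal RNA and sequenced from stranded libraries. Whether the 3 libraries in each group stem from separate cultures is not stated in the labels, so p-values measure only the spread between libraries, and that spread may be technical. The gene table held 155452 to 245958 reads per library. The unnamed gene ENSCHIG00000018556 took 30.5% to 47.5% of them in treated and 3.51% to 14.5% in control libraries. Of 12 fibroblast markers 11 had reads in both groups, with a sum of 18852 to 23133 CPM (counts relative to the TMM-scaled library total) in treated and 11651 to 13383 CPM in control libraries. COL1A1 and COL1A2 carried most of that sum. Of the 7 fibroblast markers that could be tested, 5 (COL1A1, COL1A2, DCN, NT5E and VIM) were higher in treated cells past the adjusted p threshold used below. The other 2 were not past it: FN1 had 1197 treated and 2533 control reads and PDGFRA 27 and 88. COL3A1 had no row in the gene table, so its reads are not known. Markers of other cell types were sparse: 4 endothelial ones summed to 0 to 25.5 CPM in treated and 27.5 to 36.9 CPM in control libraries, 4 leukocyte ones to 0 to 57.3 and 7.90 to 40.3 CPM, and 4 of skeletal muscle to 0 and 3.36 to 18.3 CPM. PECAM1, VWF, KDR, PTPRC, LYZ, MYOD1, MYOG and ACTA1 had no reads or row.

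PLEKHG2, TBC1D8 and PTK6 encode signalling proteins: a guanine nucleotide exchange factor, a TBC domain protein of the family that switches off Rab GTPases, and a non-receptor tyrosine kinase known in human and mouse mainly from epithelia. HSF2 and SPIDR act in the nucleus, the first as a heat shock transcription factor and the second as a scaffold of DNA repair by homologous recombination. RETSAT, a retinol-saturating enzyme, PIGF, which helps to build the glycolipid (GPI) anchors of surface proteins, and RRBP1, a ribosome-binding membrane protein, belong to the endoplasmic reticulum, and SIRT4 is a sirtuin of the mitochondrial matrix. RRBP1 is known for holding ribosomes on that membrane and is prominent in secretory cells.

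Most of these genes lie beside another gene. By the RefSeq gene table, 8 of the 9 had a gene that overlapped them or lay within 1 kb on either strand, and SIRT4 had none. Such a neighbour was present for 47.9% of 8430 further named genes that RefSeq places. Closeness to a neighbour was part of how the genes were described when chosen, so these counts are a description. Overlap with a neighbour was found for 3 members, PTK6, RRBP1 and PIGF, and for 24.4% of the further genes. A protein-coding neighbour within 1 kb was found for 6 of the 9 and for 37.6% of the further genes.

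The neighbours include genes of household functions. TBC1D8 lies beside RPL31, a protein of the large ribosomal subunit, and RETSAT between TGOLN2, a protein of the trans-Golgi network, and ELMOD3. PTK6 lies between the related kinase SRMS and PPDPF, and PIGF between RHOQ and CRIPT. SPIDR lies beside CEBPD, a transcription factor of the CCAAT/enhancer-binding family. RRBP1 overlaps the uncharacterised gene LOC108637351, HSF2 has the noncoding LOC106502464 and PLEKHG2 a transfer RNA gene within 1 kb. Of these 11 neighbours 4 matched a row of the gene table, and 7 did not, among them RPL31, TGOLN2, PPDPF and CRIPT. The match was by RefSeq gene number, and 44.2% of all placed protein-coding RefSeq genes matched a row. A search by symbol found no row for these 7 either, though 2223 genes of the table had no symbol.

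Where a neighbour had a row, it had far fewer reads than the member. The treated replicates 1 to 3 held 36, 27 and 37 CEBPD reads and the controls 56, 80 and 42. SPIDR had 792, 668 and 933 reads in the same treated libraries and 2175, 2504 and 1848 in the controls. ELMOD3 had 7 treated and 2 control reads, SRMS 7 and 0, and RHOQ 0 and 5. Read counts of different genes depend on transcript length, which was not used here, so they do not rank the levels of the RNAs. Neither the program that counted the reads nor its strand setting or gene models are stated in the labels. Reads of a member and of a gene that overlaps it in those models, on the other strand in particular, therefore cannot be told apart, and a change below is a change in counted reads that may not be the level of the member's mRNA.

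The comparison of exposed with control cells asked whether these counts move with the chronic exposure. All 9 genes passed the low-count filter and were tested in a fit of all 2148 genes that passed it. In treated cells 7 of the 9 fell past an edgeR quasi-likelihood adjusted p of 0.05. The other 2, SIRT4 and RRBP1, rose, with values that turned to just below 0 under some other scalings. Among all genes tested 26.7% fell, 24.9% rose, and 51.6% passed in either direction. Treated and control values did not overlap for any of the 9, as for 58.8% of all tested genes. Because the members were picked for high control reads, the choice itself favours lower values in treated cells, and the count of 7 is read with that in mind. The median log2 fold change was -0.97 for the 9 and -0.02 for all tested genes.

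**Figure D1:**
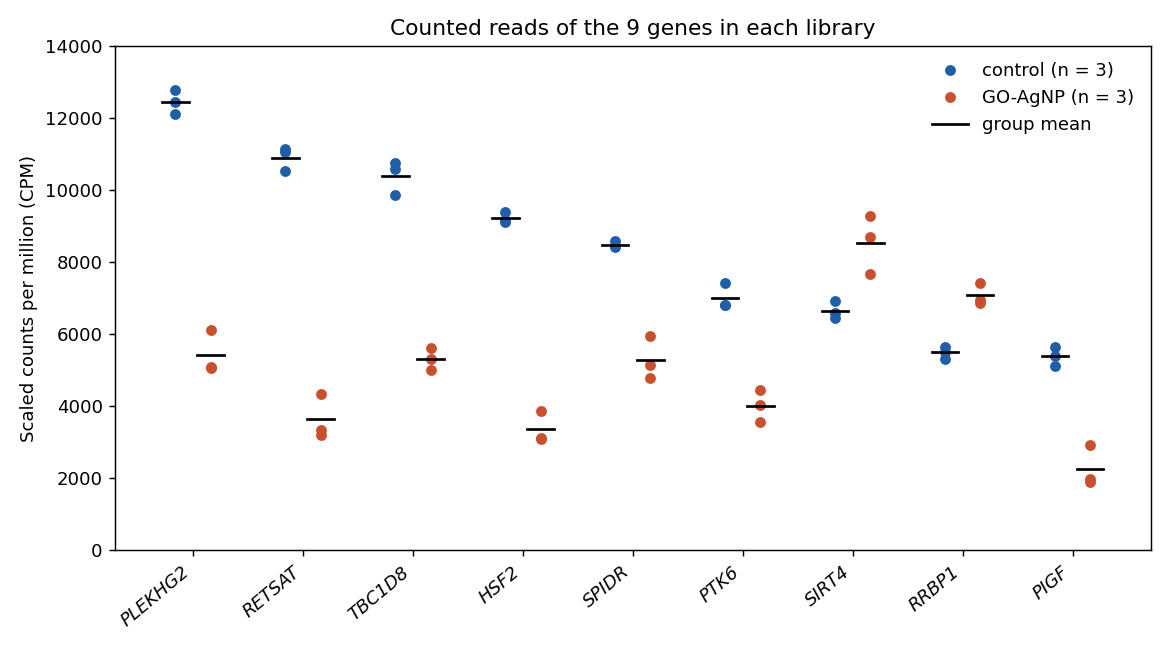
Scaled counts (CPM, relative to the TMM-scaled library total) of each gene in the 3 control (blue) and 3 GO-AgNP (orange) libraries, with black lines at group means. Treated points lie below the control points for 7 genes and, under this scaling, above them for SIRT4 and RRBP1, with no overlap in any of the 9.

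Among the signalling genes, PLEKHG2 had the most control reads of the 9. Its counts, scaled by TMM to the library total, were 5087, 5074 and 6127 CPM in treated replicates 1 to 3 and 12444, 12776 and 12102 CPM in the controls. All treated libraries lay below all controls, and PLEKHG2 was 2.29-fold lower (log2 -1.20 ± 0.14 SE, edgeR adjusted p = 1.04e-06). TBC1D8 had 5015, 5303 and 5616 CPM in treated and 10593, 10741 and 9855 CPM in control libraries. It was 1.96-fold lower (log2 -0.97 ± 0.14 SE, edgeR adjusted p = 7.94e-06). PTK6 had 4030, 3557 and 4442 CPM in treated and 6806, 7414 and 6813 CPM in control libraries, 1.75-fold lower (log2 -0.81 ± 0.14 SE, edgeR adjusted p = 7.2e-05).

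Of 5 epithelial markers, KRT19 had 9, 13 and 14 and KRT8 4, 0 and 10 treated reads, both had none in the controls, and CDH1, EPCAM and KRT18 had no reads or row. The 5 summed to 84.2 to 153.2 CPM in treated and 0 in control libraries, whereas PTK6 was higher in the controls. Their part in the PTK6 result was not tested. In bulk RNA, fewer cells of a type and less RNA per cell cannot be told apart.

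Both genes for nuclear proteins had lower scaled counts in treated cells. HSF2, one of the transcription factors of the heat shock family, had 3097, 3106 and 3867 CPM in treated and 9179, 9391 and 9109 CPM in control libraries. It was 2.75-fold lower (log2 -1.46 ± 0.15 SE, edgeR adjusted p = 1e-07). SPIDR had 5132, 4781 and 5954 CPM in treated and 8587, 8408 and 8455 CPM in control libraries. This was the smallest of the 7 falls, 1.60-fold (log2 -0.68 ± 0.14 SE, edgeR adjusted p = 0.000406), yet the highest treated library was still well under the lowest control.

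Genes of the endoplasmic reticulum went both ways. RETSAT had 3350, 3213 and 4353 CPM in treated and 10537, 11043 and 11127 CPM in control libraries, and its fall of 2.99-fold was the largest of the 9 (log2 -1.58 ± 0.15 SE, edgeR adjusted p = 6.58e-08). PIGF had 1989, 1889 and 2917 CPM in treated and 5634, 5382 and 5129 CPM in control libraries, 2.37-fold lower (log2 -1.25 ± 0.16 SE, edgeR adjusted p = 1.89e-06). For all 7 genes that fell, treated replicate 3 had the highest of the treated values.

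RRBP1, by contrast, had 7419, 6935 and 6873 CPM in treated and 5650, 5312 and 5518 CPM in control libraries. It was 1.29-fold higher (log2 0.37 ± 0.14 SE, edgeR adjusted p = 0.0288). SIRT4 had 9266, 8696 and 7658 CPM in treated and 6581, 6917 and 6451 CPM in control libraries, 1.28-fold higher (log2 0.36 ± 0.14 SE, edgeR adjusted p = 0.0361). These rises are small and depend on the scaling. With DESeq2 size factors both stayed past the threshold. SIRT4 was then at log2 0.39 (edgeR adjusted p = 0.0172) and RRBP1 at 0.40 (edgeR adjusted p = 0.0133). A block for the replicate number ended both calls (edgeR adjusted p = 0.101 and 0.087). With TMM factors taken only from genes without a RefSeq neighbour the log2 fold changes were -0.12 for SIRT4 (adjusted p = 0.524) and -0.11 for RRBP1 (adjusted p = 0.536), and with the library total alone -0.10 and -0.09. Without the low-count filter they were 0.09 and 0.10, and the DESeq2 Wald test gave adjusted p-values of 0.0987 and 0.0555. Both calls were also lost without treated replicate 1 and without control replicate 1, 2 or 3, where the log2 fold changes were 0.27 to 0.32 for SIRT4 and 0.25 to 0.35 for RRBP1 and the adjusted p ran up to 0.23 and 0.267. Without treated replicate 3 the rises were 0.57 for SIRT4 (adjusted p = 0.000727) and 0.52 for RRBP1 (adjusted p = 0.00169), and under a filter on the mean count (minimum 10) both were 0.50.

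**Figure D2:**
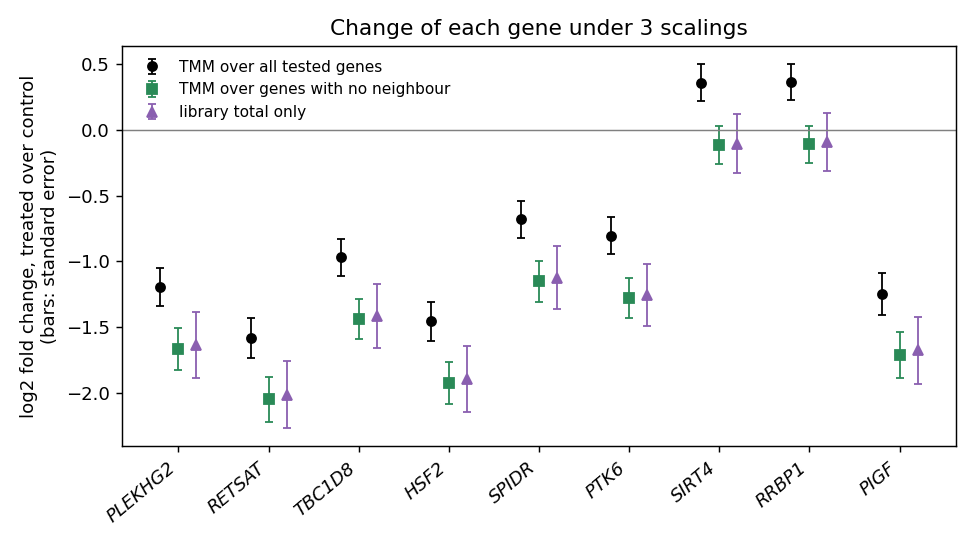
log2 fold change of each gene, treated over control, with its standard error under 3 scalings: TMM over all tested genes (circles), TMM over genes with no neighbour (squares) and the library total alone (triangles). The 7 genes that fell are below 0 under each, and SIRT4 and RRBP1 move from 0.36 and 0.37 to just below 0.

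The other scalings shift all genes alike, since the median log2 fold change of all tested genes moved from -0.02 to -0.49 with the genes without a neighbour as the reference and to -0.47 with the library total. The members shifted with that median, RETSAT for example from -1.58 to -2.05 and SPIDR from -0.68 to -1.15 with the genes without a neighbour as the reference. In the TMM fit RETSAT lay at the 13.3 percentile of the log2 fold changes of all tested genes, SPIDR at the 32.5 percentile and SIRT4 and RRBP1 at the 60.2 percentile. Many other genes had larger falls.

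**Figure D3:**
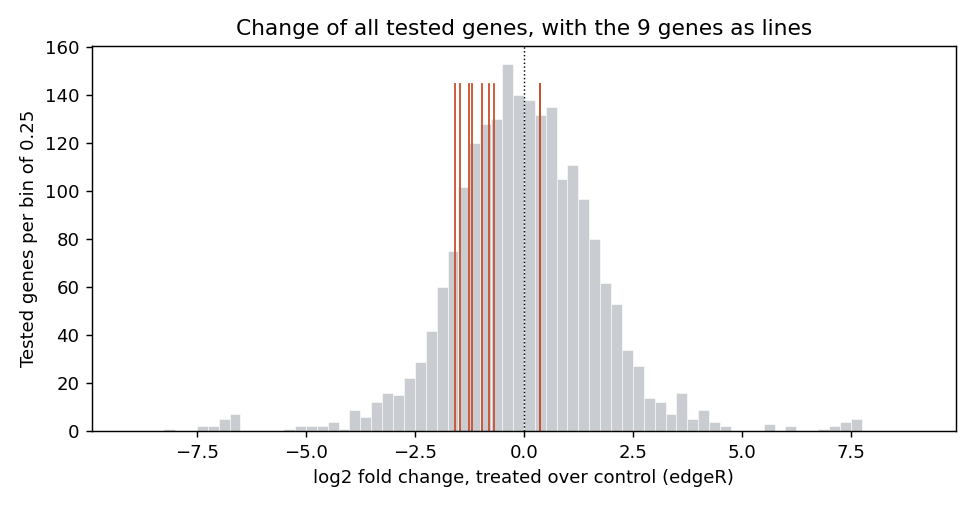
Histogram of the edgeR log2 fold change of all 2148 tested genes (grey, bins of 0.25), with an orange line for each of the 9 genes. The lines run from -1.58 to -0.68 for the 7 genes that fell and stand at 0.36 and 0.37 for SIRT4 and RRBP1, inside the bulk of the genes.

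Abundant genes other than these moved down often as well. Of the other 91 genes among the 100 most counted over all 6 libraries, 51 fell, 21 rose and 19 were not past the threshold. Their median log2 fold change was -0.57. This choice by raw reads uses both groups but gives the controls more weight, so it also favours falls. TMM-scaled totals were 218564 to 297828 in control and 139724 to 156691 in treated libraries. Where another tested gene had a RefSeq neighbour so close, 30.7% fell and 21.2% rose (1017 genes, median log2 fold change -0.22). Among those without one, 17.0% fell and 35.6% rose (613 genes, median 0.47). The mitochondrial gene ND6, the most counted named gene in the controls, fell by 1.91 on the log2 scale. COX1, another mitochondrially encoded gene, stood at a log2 fold change of 0.32 and was not past the threshold. The ratio of ND6 to COX1 reads was 13.7 to 28.4 in treated and 89.9 to 96.4 in control libraries. The strand setting of the counts is not stated, and its part in this ratio or in the falls of the members was not tested. Mitochondrially encoded genes took 1.39% to 2.07% of the gene reads in treated and 4.66% to 5.56% in control libraries, beside the difference in ENSCHIG00000018556. With these left out of the totals and the fit, the 7 genes fell by about as much, from -1.61 for RETSAT to -0.70 for SPIDR on the log2 scale, and SIRT4 and RRBP1 stood at 0.34 and 0.35.

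Ranks within a library need no scaling. The treated libraries were not used to choose the genes but the control ranks were, so that lower ranks after treatment are favoured by the choice. In the treated libraries SIRT4 was the 7th to 10th and RRBP1 the 9th to 12th most counted gene of all, against ranks 15 to 16 and 17 to 19 in the controls. Their shares of the gene reads were not higher in treated cells, at 0.728% ± 0.066 for SIRT4 and 0.606% ± 0.075 for RRBP1 against 0.782% ± 0.079 and 0.646% ± 0.055 in the controls (SD, n = 3). PLEKHG2 went from ranks 6 to 8 in the controls to 13 to 19 in treated libraries, RETSAT from 9 to 10 to 20 to 27, and HSF2 from 11 to 12 to 23 to 30. PIGF went from ranks 18 to 22 to 29 to 42. SPIDR, at rank 13 in every control library, had treated ranks of 14 to 20. TBC1D8 went from ranks 9 to 11 to 16 to 19, and PTK6 from 14 to 15 to 19 to 23. Every one of the 9 was thus still among the 42 most counted genes of every treated library. Together they took 8.94% ± 0.82 of the gene reads in the controls and 3.88% ± 0.77 after treatment (SD, n = 3 each). With mitochondrially encoded genes and ENSCHIG00000018556 left out of the total, the shares were 10.3% ± 0.38 and 6.35% ± 0.50.

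**Figure D4:**
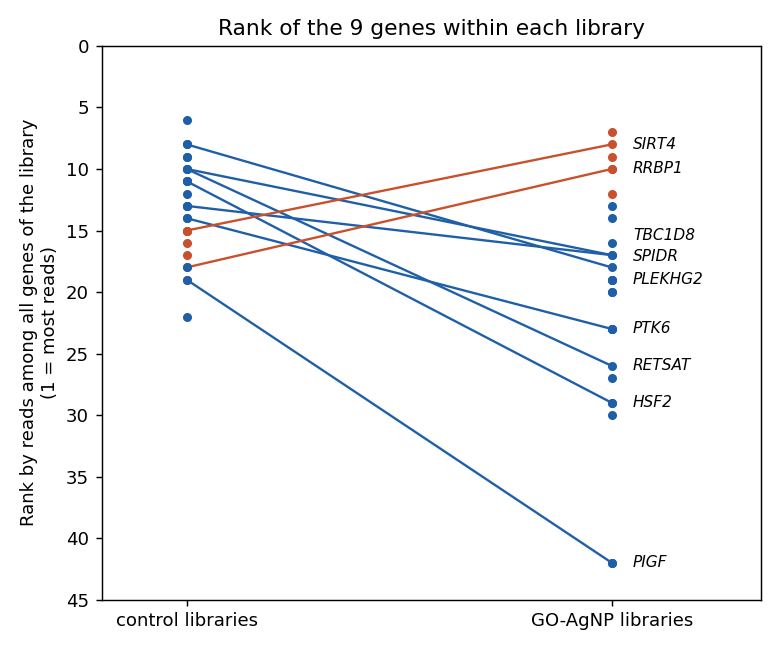
Rank of each gene by reads among all genes of a library (1 is the most reads), with a point for each of the 3 control and 3 GO-AgNP libraries and a line between group medians. SIRT4 and RRBP1 (orange) move up to ranks 7 to 12 in treated libraries, and the other 7 (blue) move down, PIGF to as low as 42.

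The members differed among themselves in how far they moved. Ratios of the reads of a pair of members within a library are free of scaling, and of the 36 pairs 31 had treated ratios that did not overlap the control ratios. The same held for 55.5% of all pairs of tested genes, with 0.5 reads added to each count. Members had more reads than most tested genes, and the counts are not set against each other by a test. SIRT4 and RRBP1 kept their ratio to each other, with a log2 ratio of 0.27 ± 0.10 (SD, n = 3) in treated cells against 0.28 ± 0.09 (SD, n = 3) in controls. Against each of the other 7 both shifted upward, by 1.04 to 1.96 on the log2 scale, a direction that the split by rise and fall fixes. Within the 7, 17 of 21 pairs did not overlap. The widest shift was between RETSAT and SPIDR, whose log2 ratio went from 0.36 ± 0.06 in the controls to -0.55 ± 0.08 in treated cells (SD, n = 3). The narrowest was between PLEKHG2 and PIGF, with 1.21 ± 0.06 in the controls and 1.28 ± 0.19 in treated cells. The members were chosen with these results known, and no test was made of the pairs.

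A member and its neighbour could be compared for 4 pairs by the log2 ratio of their reads in a library. SPIDR to CEBPD was the pair with enough neighbour reads to read closely. The ratio was 4.44, 4.60 and 4.64 in treated and 5.27, 4.96 and 5.44 in control libraries, with no overlap. It was lower by 0.66 on the log2 scale in treated libraries, beside a log2 fold change of -0.68 for SPIDR in the TMM fit. The ratio alone does not show whether CEBPD moved. A two-sided exact permutation gave p = 0.1, which is the lowest value possible with 3 against 3 libraries (adjusted p = 0.133 over 4 pairs). No pair could therefore pass the adjusted p threshold used above, and no conclusion is drawn from this test. The members were also chosen for high control reads, which favours lower ratios in treated libraries. RETSAT to ELMOD3 differed by -3.94 and PTK6 to SRMS by -3.33 with the same p, and PIGF to RHOQ by 0.04 (exact p = 1). Those 3 neighbours had under 10 reads in all libraries together, and their ratios depend on the 0.5 reads added to each count.

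The profile of each member over the 6 libraries was closely shared by other genes. By the root mean square difference of centred log2 CPM among 1764 other named genes, RETSAT and HSF2 were nearest to each other, 0.08 apart. PLEKHG2 was nearest to HEXD (0.06), TBC1D8 to the G protein subunit GNB2 (0.05), SPIDR to GET4 (0.05), PTK6 to HERC5 (0.08), and PIGF to IQCG (0.03). SIRT4 was nearest to the DNA repair gene ERCC1 (0.06), which at a log2 fold change of 0.36 ± 0.18 SE did not pass (edgeR adjusted p = 0.105). RRBP1 was nearest to FSTL1 (0.06), at 0.35 ± 0.20 SE (edgeR adjusted p = 0.141). Because 6 libraries in 2 groups leave few ways to differ, such likeness is a description of these libraries.

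Relatives of the members in their pathways that had a row in the gene table had far fewer reads, and few could be tested. Rows existed for 6 of 6 other sirtuins, 12 of 24 GPI anchor genes, 9 of 16 heat shock genes and 10 of 16 homologous recombination genes. They existed for 15 of 17 translocon and ribosome binding genes and 16 of 21 TBC domain genes. A gene without a row could not be tested. Of 6 other sirtuins 1 was tested: the deacetylase SIRT1 had 6, 11 and 7 treated and 46, 26 and 20 control reads and was 2.23-fold lower (edgeR adjusted p = 0.044), with SIRT4 at a log2 fold change of 0.36. Of 24 other genes of GPI anchor synthesis 1 was tested, the mannosyltransferase PIGB, which had 8, 16 and 26 treated and 103, 104 and 106 control reads. PIGB was 3.70-fold lower (log2 -1.89 ± 0.31 SE, edgeR adjusted p = 3.54e-05), in the same direction as PIGF.

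Of 16 other heat shock genes 2 were tested. The chaperone HSP90AA1 had 125, 115 and 102 treated and 82, 90 and 69 control reads and was 2.42-fold higher (edgeR adjusted p = 1.19e-05), opposite to HSF2. HSP90AB1 stood at a log2 fold change of -0.12 and did not pass. Of 16 other genes of homologous recombination 2 were tested. RAD54L, a helicase-like translocase, had 20, 28 and 22 treated and 5, 4 and 2 control reads and was 10.6-fold higher (edgeR adjusted p = 1.46e-05), and XRCC3 had 4, 5 and 2 treated and 22, 27 and 20 control reads and was 3.59-fold lower (edgeR adjusted p = 0.0082).

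Of 17 other genes of the translocon and of ribosome binding 5 were tested, and 1 of them rose and 1 fell. SEC62, a translocation factor, was 3.16-fold higher and DDOST, a subunit of the oligosaccharyltransferase, 2.35-fold lower, while SRPRA, which was not past the threshold, stood at a log2 fold change of 0.23. Of 21 other TBC domain genes 2 were tested, of which TBC1D9B rose 4.09-fold (edgeR adjusted p = 0.00523) and TBC1D10B stood at a log2 fold change of 1.07. Of 17 other genes of retinoid metabolism 6 had a row, as had 6 of 9 other kinases of the PTK6 and SRC families. None of those with a row passed the low-count filter.

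Other RNA classes at these loci held few reads. The circRNA table, which counts back-splice junction reads of circular RNAs, listed 8 circRNAs under 6 of the 9 genes among 3503 in all, and none under TBC1D8, PTK6 or SIRT4. None of the 595 rows of the lncRNA table named a member or a neighbour within 1 kb as its associated gene. No circRNA of a member was seen in both groups. The share of all listed circRNAs seen in both was not computed. With so few reads this is not read as a trait of the members. The 8 together had 17 of 4287 treated and 22 of 17348 control junction reads.

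The circRNA with the most reads was antisense to RETSAT (minus strand of chromosome 11, 49179781 to 49180149, in a build that the labels do not name). Treated replicates 1 to 3 held 4, 5 and 7 of its junction reads, and the controls held none. Its share of junction reads was 21.6-fold higher in treated cells with the control group set to 3 reads over its 3 libraries. This bound takes the treated reads as exact and leaves out their counting error. Junction reads were fewer in treated libraries, and per gene read the same bound was 6.52-fold. The gene models behind the assignment to RETSAT are not stated in the labels, so the circRNA may belong to a neighbouring locus. RETSAT gene reads fell in the same libraries. An exonic circRNA of SPIDR on the plus strand of chromosome 14 (62681071 to 62684757) was seen with 2, 6 and 3 reads in the controls and with no read after treatment. At the control share of junction reads 2.72 reads would fall in the treated libraries, so by that share a difference was not detectable. Gene reads differed less between the groups, with 534516 in treated and 653534 in control libraries. By gene reads the expected count would therefore be higher, so whether a difference was detectable depends on the total used. That count was not computed, and the difference was not tested. The remaining 6, of HSF2, PIGF, PLEKHG2, RETSAT, RRBP1 and again SPIDR, had 1 to 4 reads each.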

How the data were processed

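The authors deposited raw counts of 11374 protein-coding genes, back-splice junction read counts of 3503 circRNAs and counts of 595 lncRNA rows, per the file headers. The 18 normalized columns were not used. CASAVA 1.8, BWA and hg19, a human build, appear in the submitters' processing notes. How reads were assigned to genes, with which strand setting and which gene models, is not stated there. Libraries were grouped by labelled treatment, and columns matched by title.

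Gene counts were filtered with filterByExpr (minimum count 10), scaled by TMM and tested by the quasi-likelihood test of edgeR 4.0.16 under R 4.3.3, with Benjamini-Hochberg adjustment over 2148 genes and a threshold of 0.05. The standard error of a log2 fold change is its size over the root of the F statistic, and CPM use TMM-scaled totals. The scripts were tested on simulated data. RefSeq's genes (assembly ARS1.2) were matched by gene number and were used only for names and neighbours. Bounds set a group at 0 to 3 reads and cover the counting error of that group only, not that of the other group. Reads without molecular identifiers are also not independent. Every pair of replicates differed beyond sampling noise, so none was merged. Alternatives were other scalings and filters, the DESeq2 1.42.0 Wald test, a block for the replicate number, and fits without each library in turn. A count of protein-coding neighbours and the share of all gene pairs without overlap were added after the data were seen.

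The members and gene lists were chosen with earlier results of these data known. Named are all members, their neighbours within 1 kb, the gene nearest to each in profile and up to 3 genes per list by mean CPM. The list for PLEKHG2 is not reported here.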

Additional observations from a re-analysis of the deposited data

Results flagged for a closer look

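The circRNA antisense to RETSAT was singled out because it appears in a table outside the gene comparison and above its level in the controls, with 16 treated junction reads over 3 libraries and none in the controls. Its reads were not tested beyond this bound.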

How the results depend on the processing

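The 7 falls kept their direction and stayed past the threshold under all 14 alternatives run for each, 98 of 98 values. SIRT4 and RRBP1 passed under 5 of 14. Their log2 fold changes turned to -0.10 and -0.092 with no scaling factor and to -0.12 and -0.11 with TMM on genes without a neighbour. The number of members that rose went from 2 to 0 with no scaling factor, with TMM on genes without a neighbour, with no filter, with the DESeq2 Wald test and with the replicate block, and ranged from 0 to 2 when 1 library was left out. The number of all tested genes that rose went from 534 to 326 with no scaling factor, to 347 with TMM on genes without a neighbour and to 941 with no filter, and the number that fell from 574 to 769, 810 and 1165. The labels state no pairing, and same-numbered libraries did not deviate together (correlations of -0.02, -0.01 and -0.03). With 3 libraries per group this check cannot exclude a pairing. The replicate block put SIRT4 at log2 0.36 (edgeR adjusted p = 0.101) and RRBP1 at 0.36 (edgeR adjusted p = 0.087). It changed no other call among members. The members' share of reads went from 3.88% to 6.35% in treated and from 8.94% to 10.3% in control libraries without mitochondrially encoded genes and ENSCHIG00000018556. Members with a neighbour numbered 8 within 1 kb, 3 by overlap only, 8 within 5 kb and 6 if protein-coding. The PIGF to RHOQ difference turned from 0.04 to -0.64 with a pseudocount of 1, and ranged from -0.23 to 0.32 when 1 library was left out. The cause of these shifts was not tested.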
